A study of Mus musculus with 4 samples.

Results

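Chronic fluoxetine was compared with vehicle in the mouse dentate gyrus (DG) on a pair of Affymetrix mouse genome 430A 2.0 arrays, 2 of the 4 arrays of the series. Each array held RNA pooled within a group of C57Bl/6 mice, so every value below rests on 1 pooled array a side, and sizes are reported without p-values or SDs. The fluoxetine group had drunk the drug in its water at 22 mg/kg a day for 4 weeks, and its methods add saccharin at 0.2% to that solution. The vehicle group is labelled water for 28 days, so any effect of saccharin cannot be told apart from that of the drug unless the vehicle contained it too. Fluoxetine-treated mice were chosen for weak frequency facilitation at the mossy fiber synapse, with 3 such mice named in the design text, so the pool describes mice selected by a recording and not treated mice at large. The other arrays held DG from mice given 11 sessions of electroconvulsive stimulation (ECS) or sham handling, labelled 6 h after the last session, while the methods of the study give a later time. In all groups the DG was dissected from hippocampal slices cut for recording. A log2 ratio of fluoxetine to vehicle was formed for every measured gene, 7935 genes of the 12394 that the array names by a probe set of their own.

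Fluoxetine is a selective serotonin reuptake inhibitor, which blocks the transporter that clears serotonin from the extracellular space. Granule cells (GCs) are the principal neurons of the DG and send mossy fiber axons to CA3, where their terminals release glutamate together with peptides. Mature GCs are rich in calbindin, whereas newly generated GCs pass through stages marked by doublecortin and calretinin. The question behind the comparison was whether long treatment with an antidepressant moves adult GCs away from the mature pattern of gene expression.

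Signals are given on a common scale. Each array was centred on its median log2 signal over those probe sets whose signals averaged 50 or more across the 4 arrays, and then moved to a shared median signal of 282, so that quotients of the printed signals are the printed ratios. The centring took 0.12 on the log2 scale off every ratio of fluoxetine to vehicle. For the 9 spiked-in hybridization control probe sets, the median log2 ratio of fluoxetine to vehicle was 0.04 as deposited and -0.09 after centring, so all values below are relative to the median gene. A value in parentheses after a gene is its log2 ratio of fluoxetine to vehicle. The ratio of sham to vehicle, the pair of untreated pools, served as the yardstick, although these pools differ in handling as well. The control spread of a gene is the scaled median absolute deviation of that ratio over the 500 probe sets nearest in signal.

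At a size of 1.5-fold, 462 genes (5.82%) were higher and 407 (5.13%) lower with fluoxetine than with vehicle. Between sham and vehicle, 1.99% of the same genes were higher in sham and 1.21% lower. At 2-fold the fluoxetine counts were 170 and 91 genes, against 23 and 14 between the controls, and at 4-fold they were 35 and 7 against 0 and 1. The upper tail was thus the longer: the 99th percentile of the log2 ratios was 1.45 and the 1st percentile -1.04, around a median of -0.01. Over probe sets in place of genes, 764 of 13422 (5.69%) were higher and 663 (4.94%) lower, which puts 53.5% of the changed probe sets on the higher side. With the signals as deposited, without centring, the counts were 1159 and 417, or 73.5% on the higher side. Of the 462 higher genes, 64 stood among 165 genes whose mean signal reached 50 only with the fluoxetine array, and these had little room to come out lower.

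**Figure D1:**
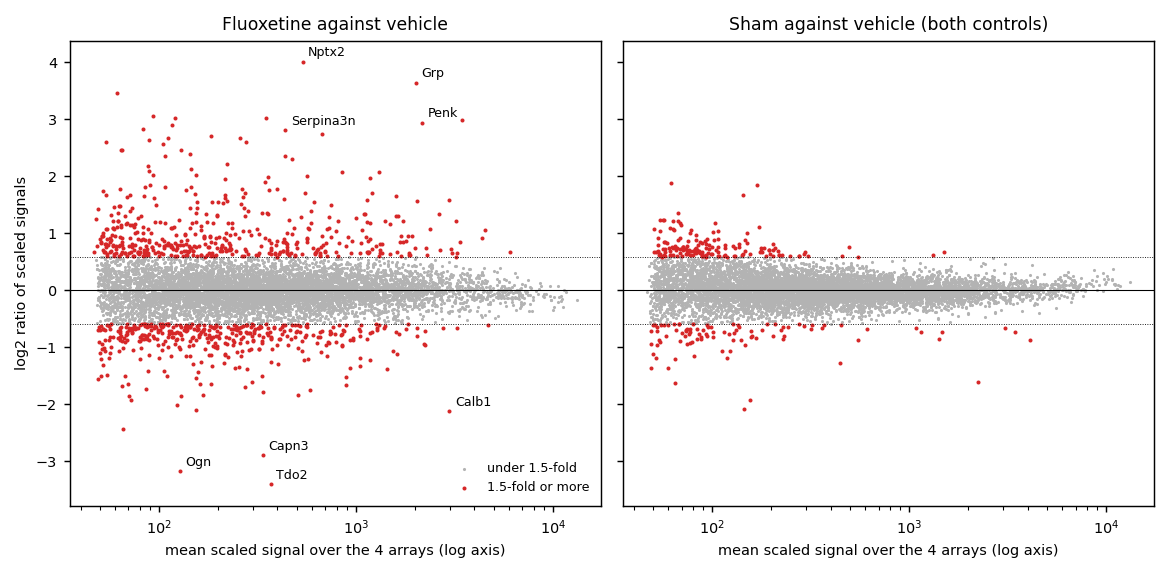
Log2 ratio of scaled signals (vertical axis) against the mean scaled signal over the 4 arrays (horizontal log axis) for 7935 genes, with fluoxetine over vehicle on the left and sham over vehicle on the right. Red points are at least 1.5-fold apart, and the dotted lines mark that size. The left panel holds 462 red points above and 407 below 0, the right panel 158 and 96.

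Dim probe sets were the less precise. With mean deposited signals of 50 to 100, 18.8% of probe sets were at least 1.5-fold apart between fluoxetine and vehicle, but so were 12.2% between sham and vehicle. From 200 to 500 these shares were 9.06% and 1.36%, and at 1000 or more they were 5.42% and 0.739%. A gene's second probe set, where 1 existed, shared the sign of the brightest in 131 of 143 higher genes (91.6%) and 104 of 112 lower genes (92.9%), and was itself past 1.5-fold in 92 and 62 of them. Past 1.5-fold in either direction were 10.2% of all 2978 second probe sets.

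**Figure D2:**
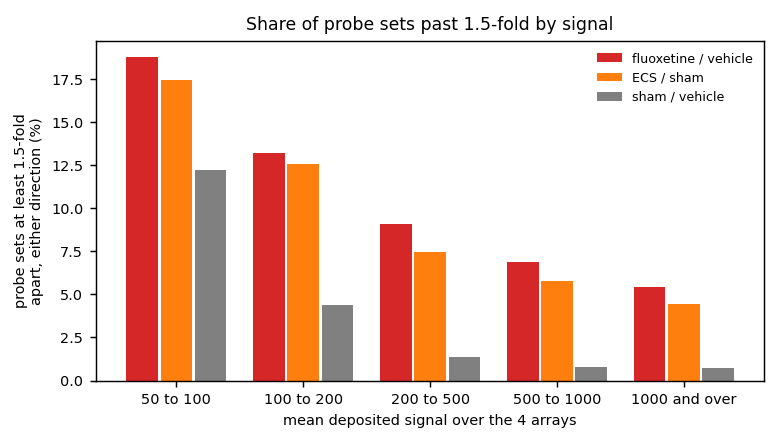
Percent of probe sets at least 1.5-fold apart in either direction (vertical axis) by mean deposited signal over the 4 arrays (horizontal axis), for fluoxetine over vehicle, ECS over sham and sham over vehicle. The share for fluoxetine is 18.8% in the dimmest class and 5.42% in the brightest, and that between the controls is 12.2% and 0.739%.

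The DG identity of the tissue was seen on all 4 arrays. Neurod1, a transcription factor of GCs, had signals of 1806 in sham, 1620.1 with ECS, 1711 in vehicle and 1513 with fluoxetine, and Prox1, the factor that specifies GCs, lay between 127 and 139. Transcripts of choroid plexus were low. Ttr, the most abundant transcript of choroid plexus, had deposited signals of 15.2 to 18.6, and 3 of 13 choroid plexus genes on the array passed the filter. Genes of the neighbouring CA1 and CA3 pyramidal cells were measured, 13 of 16 passing, with a summed scaled signal of 8417 in sham, 8864 with ECS, 8589 in vehicle and 8575 with fluoxetine. The haemoglobin gene Hba-a1 had deposited signals of 1.8 to 9.8. The 3' to 5' signal ratio of actin was 1.53 in vehicle and 1.47 with fluoxetine.

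Markers of mature GCs were lower with fluoxetine, all 4 of those that the study itself follows, 4 of 4 on the array, with a median log2 ratio of -1.75, where 5.13% of all genes were lower. As the study follows these genes as markers of mature GCs and measured them in the same treatments, their direction is a description and no independent evidence. Tdo2, a tryptophan-degrading dioxygenase, had signals of 673 in sham, 606 in vehicle, 139 with ECS and 57.2 with fluoxetine, a log2 ratio of fluoxetine to vehicle of -3.41 or a 10.6-fold decrease. The controls lay close together, the ECS array between, and the fluoxetine array lowest. Calb1, which encodes the calcium buffer calbindin, had 4552 in sham, 4545 in vehicle, 1800.1 with ECS and 1045 with fluoxetine, a log2 ratio of -2.12. Dsp, the desmosomal linker desmoplakin, went from 2154 in vehicle to 828 (-1.38), with 1691 in sham and 1116 with ECS. Il1r1, a receptor of interleukin-1, went from 219 to 91.2 (-1.27), with 204 and 138 in sham and ECS. For each of the 4 genes the fluoxetine array was the lowest, and the further probe sets of Tdo2, Calb1 and Dsp had log2 ratios of -2.29, -2.44 and -1.60. The fluoxetine mice were chosen for weak facilitation, whose size the study reports to track Calb1 expression. For the ECS mice the methods report reduced facilitation too, but describe no such choice. The part that choosing the fluoxetine mice had in these sizes was not tested. In bulk tissue, fewer cells of a type cannot be told apart from less RNA per cell.

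Other genes of GC identity moved less. Of 12 measured genes, 13 being on the array, 3 fell and none rose, with a median of -0.19. Among all genes, 5.13% fell and 5.82% rose. Lct, the hydrolase lactase, fell from 1475 in vehicle to 632 with fluoxetine, against 1515 in sham, a log2 ratio of -1.22. Scgn, the calcium-binding protein secretagogin, and Sema5a, a semaphorin, had ratios of -1.14 and -0.71. Prox1 had a ratio of 0.09, Neurod1 of -0.18 and Bcl11b, a zinc finger factor of mature GCs, of -0.23, none of them past 1.5-fold.

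The 15 largest decreases ran from -3.41 for Tdo2 to -1.64 for Nt5dc2, ranked with signals below 50 taken as 50. Capn3, a calcium-dependent protease, was second, with 594 in sham, 464 in vehicle, 226 with ECS and 62.7 with fluoxetine, a 7.41-fold decrease. Gpr12, a constitutively active receptor that raises cyclic AMP, had 236, 239, 86.6 and 55.6 in the same order. Gabrd, the delta subunit of extrasynaptic GABA-A receptors on GCs, fell from 415 to 129 (-1.69). In each of these genes the pools ordered as controls, ECS and fluoxetine. Genes of calcium handling and phosphoinositide signalling stood beside them, namely Pnck, a calmodulin-dependent kinase (-1.84), and Pip5k1b, a phosphatidylinositol phosphate kinase (-1.78, with -1.81 and -2.17 on its other probe sets). The cytokine gene Il16 (-1.85), the transcriptional repressor gene Bcl6 (-1.75), Slc6a15, a transporter of neutral amino acids (-1.66), and Abcc8, the sulfonylurea receptor of potassium channels (-1.64), were also in this group. Ogn, a small proteoglycan of connective tissue, had signals of 194 in vehicle and 21.4 with fluoxetine, the latter under 50, so its ratio of -3.18 is of uncertain size and was -1.95 with the floor. Cdhr1, Fam184b and Nt5dc2 complete the group at -2.01, -1.84 and -1.64. The ranking itself puts the fluoxetine array below vehicle in these genes, and it lay below sham too in 15 of 15. In 0 of 15 were sham and vehicle 1.5-fold apart.

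**Figure D3:**
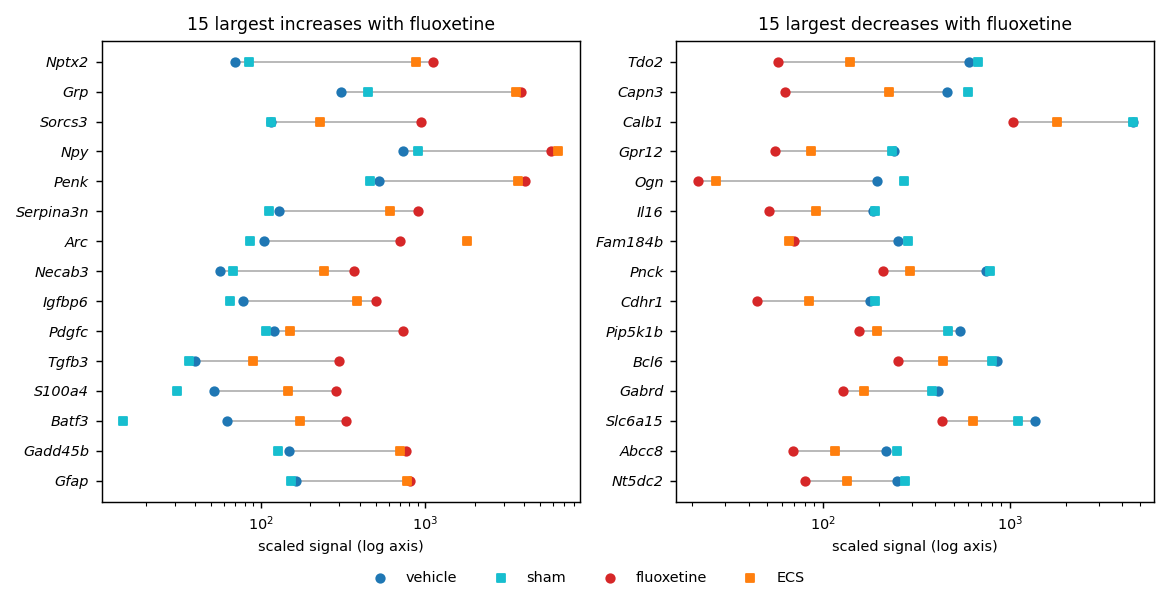
Scaled signals on the 4 arrays (horizontal log axis) for the 15 genes with the largest increase (left) and the 15 with the largest decrease (right) from vehicle to fluoxetine, 1 row per gene, with a grey line from vehicle to fluoxetine. Vehicle and sham lie close together for most genes, with Batf3 as the widest gap, and the fluoxetine array lies beyond both controls for 15 of 15 genes in each panel. The genes were ranked by fluoxetine against vehicle, so the side of vehicle is given by that choice.

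Increases were larger than decreases. Nptx2, a secreted pentraxin that gathers AMPA receptors at synapses, had 84.8 in sham, 69.8 in vehicle, 877 with ECS and 1120.1 with fluoxetine, a 16.1-fold increase. Sorcs3, a sorting receptor of neurons, had 115, 115, 230.1 and 939, an 8.14-fold increase. In these genes the treated arrays lay apart from the controls, and for Sorcs3 the fluoxetine array lay apart from ECS too, at log2 ratios of 3.03 and 1.00 to their own controls. Necab3, a neuronal calcium-binding protein, rose from 56.5 to 371 and Igfbp6, a binding protein of insulin-like growth factors, by 2.67 on the log2 scale from a vehicle signal of 78.5. Pdgfc, a ligand of platelet-derived growth factor receptors, rose from 121 to 729, against 108 in sham and 151 with ECS. S100a4, a calcium-binding protein (2.46), and Batf3, a leucine zipper factor (2.39), were the 2 of these 15 genes whose control arrays were themselves at least 1.5-fold apart. Batf3 had 14.7 in sham and 62.5 in vehicle, so that its ratio depends on the control taken. The other members of the top 15 are described with their groups below. In 15 of 15 the fluoxetine array was above sham as well as vehicle, the latter by the ranking itself.

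Genes that neuronal activity induces were higher, in particular those with synaptic or secreted products. Of 24 measured genes of that list, 31 being on the array, 17 rose and none fell, with a median log2 ratio of 1.01. Over all genes 5.82% rose and the median was -0.01. Without Homer1, which passed the signal filter only with the fluoxetine array, 16 of 23 rose and none fell. Between the controls, none of the 24 was higher in sham and 3 were lower. Arc, a regulator of AMPA receptor uptake, had 86.5 in sham, 105 in vehicle, 1786 with ECS and 702 with fluoxetine. Bdnf, the neurotrophin, had 878, 1023, 3233 and 3011 in the same order, a log2 ratio of fluoxetine to vehicle of 1.56 and of 1.46 on its other probe set. The treated arrays were above the controls for these genes, with ECS above fluoxetine for Arc and close to it for Bdnf. Gadd45b, a growth arrest gene linked to DNA demethylation, rose from 149 to 764, and Rgs4, which speeds the shut-off of G protein signals, from 473 to 1991. Inhba, the activin subunit, had a ratio of 1.71, Ptgs2, an inducible cyclooxygenase, of 1.18, and Plk2, a polo-like kinase of synapses, of 0.95. Dusp1, a phosphatase of MAP kinases, had 154 in vehicle and 121 with fluoxetine (-0.36), and Nptx1, the sister pentraxin of Nptx2, 4524 and 4247.

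Immediate early transcription factors were split. Of 24 measured, 28 being on the array, 12 rose and 1 fell, with a median of 0.54. With low signals raised to the floor, that median was 0.30. Of the same 24 genes, 3 were at least 1.5-fold higher and 2 lower in sham than in vehicle. Among all genes, 5.82% rose and 5.13% fell with fluoxetine. Egr1 had 853 in sham, 923 in vehicle, 7402 with ECS and 2749 with fluoxetine, a log2 ratio of 1.58. Fos had 141, 166, 4902 and 388, a ratio of 1.22, and Nr4a1, an orphan nuclear receptor, 114, 119, 2526 and 229, a ratio of 0.94. The fluoxetine array was above both controls for these genes and far below the ECS array. Junb had 129 in vehicle and 109 with fluoxetine, Ier2 79.5 and 91.9, and Nfil3 134 and 139, while the ECS array read 802, 364 and 521 for them. Jun was the gene of this list that fell, from 1919.7 to 881, with 2075 in sham and 1609 with ECS, a ratio of -1.12 and of -1.11 on its other probe set. The median log2 ratio of ECS to sham over the same list was 1.53, and hours since the last stimulus differ between the designs. Fosb and Atf3 had ratios of 2.03 and 3.46, but with vehicle signals of 24.4 and 5.14 these sizes are uncertain, and the sham signals were 6.45 and 19.0.

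Precursors of neuropeptides included some of the largest values of the comparison. Of 17 measured, 21 being on the array, 8 rose and none fell, with a median of 0.38. Among all genes, 5.82% rose and 5.13% fell. Grp, the gastrin-releasing peptide, rose from 306 in vehicle to 3818 with fluoxetine, a 12.5-fold increase, with 446 in sham and 3537 with ECS. Npy, an inhibitory peptide of interneurons, rose from 733 to 5811, with 904 and 6407 in sham and ECS. Penk, the precursor of enkephalins, rose from 524 to 4014, with 464 and 3649.7 in sham and ECS. For these peptides the fluoxetine and ECS arrays were near each other and both lay far above the controls. Tac2, the precursor of neurokinin B, and Gal, galanin, had ratios of 3.02 and 2.22, Tac2 with a vehicle signal of only 29.1. Not all peptides moved: Pdyn, the prodynorphin of mossy fibers, had 162 in vehicle and 182 with fluoxetine, and Sst, somatostatin of hilar interneurons, 810.3 and 847. Among proteins of the secretory granule, Chga (1.55), Scg2 (0.92) and Ptprn (0.95) rose, 3 of 14 measured genes.

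Promoters of the genes were searched for letters that activity-dependent factors bind. Activity raises transcription in part through CREB at the cAMP response element and through Fos and Jun proteins at AP-1 sites. RefSeq promoters of build GRCm38.p6, from 250 bases before to 50 after the start, were at hand for 352 of the 462 higher genes, 319 of the 407 lower genes and 6478 of all measured genes. On either strand, TGACGTCA stood in 2.84% of the promoters of higher genes, 2.51% of lower genes and 3.37% of measured genes. Its core TGACG, which the full element contains, stood in 23.9%, 22.3% and 33.8%, AP-1 letters TGANTCA in 7.67%, 5.96% and 4.46%, Egr letters GCGTGGGCG in 0.852%, 1.57% and 1.22%, and the E-box CACGTG in 10.5%, 8.15% and 10.8%. Over all 27025 genes of the table the shares were 1.88%, 21.0%, 7.93%, 0.625% and 7.24%. A match is a description of letters and not a site. The promoters of 2 higher and 2 lower genes are printed because each holds searched letters, which shows that the same letters occur upstream of genes that moved in opposite directions. Capitals mark the letters found, and each sequence reads 5′ to 3′ on the gene's own strand.
Scg2, chr1:79439977-79440276, minus strand, higher: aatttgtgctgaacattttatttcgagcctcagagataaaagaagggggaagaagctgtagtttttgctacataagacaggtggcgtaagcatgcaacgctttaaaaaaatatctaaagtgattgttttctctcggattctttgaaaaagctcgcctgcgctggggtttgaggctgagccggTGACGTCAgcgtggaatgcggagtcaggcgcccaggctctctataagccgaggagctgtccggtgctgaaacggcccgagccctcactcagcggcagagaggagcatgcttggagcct
Rgs4, chr1:169747593-169747892, minus strand, higher: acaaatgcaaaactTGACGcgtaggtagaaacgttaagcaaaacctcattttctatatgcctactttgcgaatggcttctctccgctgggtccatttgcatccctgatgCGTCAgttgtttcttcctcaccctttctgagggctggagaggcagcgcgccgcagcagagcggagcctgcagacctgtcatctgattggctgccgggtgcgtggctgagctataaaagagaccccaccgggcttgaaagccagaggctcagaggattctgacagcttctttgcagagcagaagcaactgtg
Hlf, chr11:90390868-90391167, minus strand, lower: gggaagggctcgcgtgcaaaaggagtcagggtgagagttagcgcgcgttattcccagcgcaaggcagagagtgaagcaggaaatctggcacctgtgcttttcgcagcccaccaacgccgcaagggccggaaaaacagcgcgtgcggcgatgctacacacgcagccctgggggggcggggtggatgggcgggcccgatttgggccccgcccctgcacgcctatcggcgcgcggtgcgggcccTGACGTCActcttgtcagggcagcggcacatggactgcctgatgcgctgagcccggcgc
Bcl6, chr16:23988803-23989102, minus strand, lower: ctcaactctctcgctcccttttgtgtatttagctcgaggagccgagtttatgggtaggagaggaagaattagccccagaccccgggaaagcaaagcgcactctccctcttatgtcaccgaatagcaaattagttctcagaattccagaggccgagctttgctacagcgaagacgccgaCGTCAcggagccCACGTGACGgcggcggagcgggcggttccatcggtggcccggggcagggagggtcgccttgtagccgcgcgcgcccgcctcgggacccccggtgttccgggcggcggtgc

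The full response element lies 68 bases before the start of Scg2 and 9 bases before that of Hlf, a clock output factor. Scg2 rose from 2881 to 5446, while Hlf fell from 1259.5 to 491, a log2 ratio of -1.36. Rgs4 holds the core 236 and 141 bases before its start, and Bcl6 holds the core 72 and 56 bases and the E-box 60 bases before its start, the core at 56 overlapping the E-box.

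Genes of immature GCs and neuroblasts rose in part. Of 22 measured, 23 being on the array, 6 rose and none fell, with a median of 0.29. For this and the counts below, the shares over all genes were 5.82% higher and 5.13% lower. Sox11, a transcription factor of newborn neurons, had 484 in sham, 447 in vehicle, 792 with ECS and 1257 with fluoxetine, a log2 ratio of 1.49. Calb2, calretinin of early postmitotic GCs and mossy cells, had 351, 238, 682 and 429, a ratio of 0.85, and Dcx, doublecortin, 132, 141, 251 and 179.5, a ratio of 0.35 that did not reach 1.5-fold. The fluoxetine array was the highest for Sox11 and lay below ECS for Calb2 and Dcx. For Calb2 sham stood above vehicle by 0.56, and its log2 ratio of fluoxetine to sham was only 0.29. Igfbpl1 (0.88) and Dpysl3 (0.87), both of growing neurons, rose as well. Neurod6 (-0.02) and Eomes (0.15), also taken as markers of immature GCs, stayed within 1.5-fold. Of stem and progenitor genes, 13 of 14 measured, 2 rose and 3 fell. Those that rose were Vim, an intermediate filament also of reactive astrocytes (1.97), and Notch1, the receptor that keeps progenitors undifferentiated (1.09). Hes5, a target of Notch, fell from 80.2 to 14.8, a dim probe set whose floored ratio was -0.68, with -0.95 on its other probe set. Tbr1 (-0.74) and Pax6 (-0.62), transcription factors of the neurogenic lineage, fell too, while Sox2 of stem cells had 891 and 819.6. Of 13 measured cell cycle genes, 26 being on the array, 3 rose and 1 fell, while between the controls 2 were higher and 1 lower in sham. Cdkn1a, the inhibitor p21, had 89.1 in sham, 48.6 in vehicle and 170 with fluoxetine. Its log2 ratio was 1.81 against vehicle and 0.94 against sham. Rrm2, a ribonucleotide reductase subunit, rose by 0.98 but passed the signal filter only with the fluoxetine array. Mcm2, a replication licensing gene, had 172 in sham, 54.0 in vehicle and 90.1 with fluoxetine, so that its log2 ratio was 0.74 against vehicle and -0.94 against sham. Its partner Mcm6 fell, at -1.26 and -1.23 on its other probe set. Mki67, the marker of dividing cells, had deposited signals of 17.3 in vehicle and 23.3 with fluoxetine, under the filter.

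Axon genes moved in both directions. Of 30 measured axon guidance ligands and receptors, 41 being on the array, 6 rose and 7 fell, with a median of 0.00. The shares over all genes were 5.82% higher and 5.13% lower. Sema3e, a semaphorin, had 366 in sham, 378 in vehicle, 1082 with ECS and 1583 with fluoxetine, a log2 ratio of 2.07 that its other probe sets gave as 2.23 and 2.68. Sema3a, a repellent of the same class, rose from 38.3 to 243, and the receptor gene Ephb6 had a ratio of 1.66. The ephrins Efnb2 and Efnb3 (-1.54 and -0.82) and Slit1 (-0.93) fell. Among cytoskeletal genes of growth cones, 6 of 30 measured rose and none fell, including the neurofilament Nefm, from 1617 to 4067, and Tmsb10, an actin-binding thymosin, from 2538 to 5259.

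Genes of TGF-beta and activin signalling moved in both directions, ligands and receptors alike. Ligands of this family bind pairs of type I and type II receptors, which pass the signal to Smad proteins. Of 22 measured genes, 37 being on the array, 8 rose and 2 fell, with a median of 0.16. The shares over all genes were 5.82% higher and 5.13% lower. The ligand Tgfb3 had 36.6 in sham, 40.2 in vehicle, 90.5 with ECS and 300.5 with fluoxetine, and passed the signal filter only through the fluoxetine array. The type II receptor Tgfbr2 had 172, 166, 288 and 451, a log2 ratio of 1.44, and the type I receptor Acvr1 626, 681, 1057 and 1636, a ratio of 1.26. For these 3 genes the fluoxetine array was the highest, the ECS array next, and the controls lowest. Acvr1c, another type I receptor, had a ratio of 1.49. Tgfb2 (-0.82) and the activin receptor Acvr2a (-0.91) fell, and Smad2 and Smad4, the mediators, had ratios of 0.01 and 0.11. Klf10, an early response gene of TGF-beta, rose from 321 to 1285, with 262 in sham and 383 with ECS.

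Genes of the extracellular matrix were more often higher than lower. At 1.5-fold, 5.82% of all genes were higher and 5.13% lower. Of 32 measured matrix genes, 44 being on the array, 11 rose and 4 fell, and between the controls 3 were higher in sham and none lower. Of the 32, 3 passed the signal filter only with the fluoxetine array, and without them 10 of 29 rose and 4 fell. Sparc, a matrix glycoprotein, had 1075 in sham, 989 in vehicle, 2071 with ECS and 2439 with fluoxetine, a log2 ratio of 1.30. The collagens Col1a2 and Col3a1 had ratios of 1.45 and 2.35 and the proteoglycan Bgn of 1.61, with ratios of sham to vehicle of 0.59 for Col3a1 and 0.70 for Bgn, while the laminin Lamb1 had -0.95. Collagens, Dcn and Ogn are also made by meningeal fibroblasts, of whose markers 13 of 18 passed the filter, with summed signals of 4843 in sham, 4225 with ECS, 4784 in vehicle and 3940 with fluoxetine. Their part in the matrix values was not tested.

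Of 16 measured genes of reactive astrocytes, 24 being on the array, 13 rose and 1 fell, with a median of 0.99, and 1 of the 16 was 1.5-fold higher in sham than in vehicle. Without 3 genes that passed the signal filter only with the fluoxetine array, 10 of 13 rose and 1 fell. The gene that fell was Iigp1, an interferon-induced GTPase, at -0.80. Among all genes, 5.82% rose and 5.13% fell. Gfap, the filament of astrocytes, had 152 in sham, 164 in vehicle, 774 with ECS and 809.7 with fluoxetine, a log2 ratio of 2.30 and of 2.06 on its other probe set. Serpina3n, a protease inhibitor of reactive astrocytes, had 113, 129, 609.7 and 904, a ratio of 2.81. Vim had 587, 618, 1092 and 2425, and its other probe sets gave ratios of 2.14 and 2.05. The treated arrays were above the controls for all 3, and for Vim fluoxetine was above ECS as well. Genes that mark astrocytes in any state moved little: of 18 measured, 18 being on the array, 2 rose, Gfap and the water channel Aqp4 (0.74), and the list had a median of 0.18. Its summed signal was 29656 in vehicle and 30802 with fluoxetine, and Slc1a3, Gja1 and Glul of resting astrocytes had ratios of -0.08, -0.21 and -0.14.

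**Figure D4:**
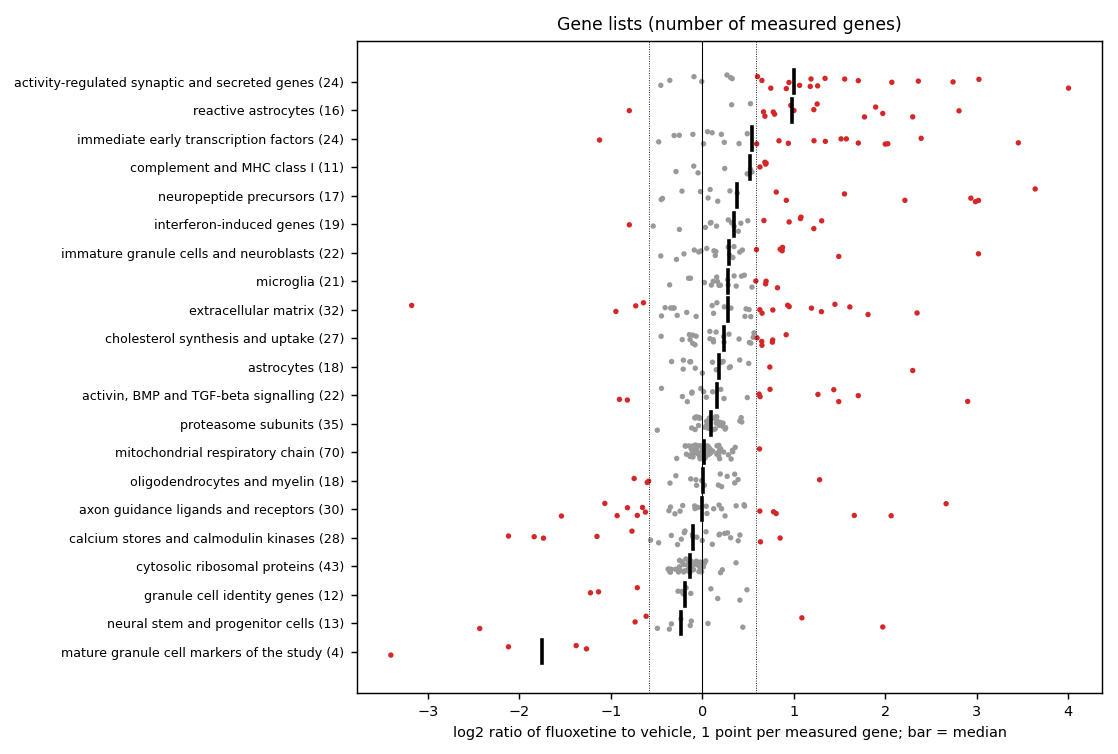
Log2 ratio of fluoxetine to vehicle (horizontal axis) for each measured gene of 21 gene lists, 1 point per gene, with red points past 1.5-fold, dotted lines at that size and a black bar at each list's median. Medians run from 1.01 for activity-regulated synaptic and secreted genes and 0.99 for reactive astrocytes to -1.75 for the mature GC markers, whereas ribosomal, proteasome and respiratory chain genes cluster about 0.

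Immune genes gave smaller values. At 1.5-fold, 5.82% of all genes were higher and 5.13% lower, and some small counts below are near these shares. Of 21 measured microglial genes, 24 being on the array, 4 rose and none fell, with a median of 0.28 and summed signals of 16302 in vehicle and 19028 with fluoxetine. The complement genes C1qb and C1qc had ratios of 0.69 and 0.70, the lysosomal Cd68 of 0.82, and the homeostatic P2ry12, Tmem119 and Cx3cr1 of -0.36, 0.02 and 0.10. Of 19 measured interferon-induced genes, 34 being on the array, 6 rose and 1 fell, Ifitm3, a restriction factor, going from 208 to 437, and 2 of the 6 passed the signal filter only with the fluoxetine array. Cytokines and receptors were divided at 5 higher and 4 lower of 23 measured, or 3 and 4 of 21 without the 2 that passed only with that array. Cxcl12, the chemokine of progenitor migration, had 1478 in sham, 1432 in vehicle, 717 with ECS and 573 with fluoxetine, and Csf1, the growth factor of microglia, 341, 297, 128 and 132. Both treated arrays were below the controls for these 2 genes. Socs2, an inhibitor of cytokine signalling, rose from 121 to 355. Of oligodendrocyte genes, 18 measured, 1 rose and 3 fell, among them Pdgfra of their precursors (-0.75), while Mbp of myelin had 6905 and 6873.

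Targets of serotonin were mostly too dim to measure. Of 24 genes of monoamine receptors, transporters and enzymes on the array, 5 passed the filter. Htr1a, an inhibitory serotonin receptor, had 228 in sham, 213 with ECS, 168 in vehicle and 94.0 with fluoxetine, a log2 ratio of -0.84 at a control spread of 0.24. The fluoxetine array was the lowest of the 4, and sham stood above vehicle by 0.44. Adra2c, an adrenergic receptor, rose from 123 to 208 (0.77), and Htr3a, Maoa and Slc29a4 had ratios of 0.17, 0.13 and -0.31. Slc6a4, the serotonin transporter that fluoxetine blocks, is made by neurons of the raphe, and its deposited signals were 9.1 in vehicle and 3.0 with fluoxetine. Htr4, a serotonin receptor of GCs, had deposited signals of 9.5 and 17.5, and no ratio is given for these dim probe sets.

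Synaptic and channel genes changed singly. Over all genes, 5.82% were higher and 5.13% lower at 1.5-fold, and some small counts below are near these shares. Of 28 measured genes of calcium stores and calmodulin kinases, 2 rose and 5 fell, with Calb1 and Pnck above, Hpcal1, a neuronal calcium sensor (-1.15), and Camkk2, a kinase of calmodulin kinases (-0.77). Camk2b and Ppp3ca, abundant calmodulin targets, had ratios of -0.27 and -0.11. Among sodium, calcium and HCN channels, 3 of 20 measured rose and 4 fell. The T-type channel Cacna1g and the auxiliary Cacna2d2 rose by 1.45 and 1.53, while Scn3b, a sodium channel subunit, fell from 2363 to 1355 and the cation channel Trpc5 from 169 to 75.7. Of 11 measured GABA synapse genes, 1 rose, the GABA-synthesizing Gad2 (0.84), and 2 fell, Gabrd and Gabrg1 (-0.85), while Gad1 had 0.17. Homer2, a scaffold of glutamate receptors, fell from 264 to 133. Regulators of G protein signals divided at 4 higher and 3 lower of 22, with Rgs4 and Rgs2 higher and Rgs14, of CA2 and hippocampal neurons, lower (-1.06). Of 20 measured cyclic AMP genes, 1 rose and 3 fell, with the kinase inhibitor Pkia at -0.66, and of 24 synaptic vesicle genes 2 rose and none fell.

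Most genes of housekeeping programmes stayed within 1.5-fold. Over all genes, 5.82% were higher and 5.13% lower at that size, and several small counts below are near these shares. None of 43 ribosomal protein genes, 35 proteasome genes or 25 endoplasmic reticulum stress genes passed that size, with medians of -0.13, 0.09 and 0.01. Of the 43 ribosomal genes 7 were above 0, against a centring of the median gene at -0.01. Of 70 respiratory chain genes 1 rose, with a median of 0.02. Of 20 measured glycolysis genes 2 rose, Hk2, a hexokinase (1.23), and Pfkp, a phosphofructokinase (0.93), and of 29 genes of fatty acid and lipid metabolism 2 rose, with none lower in either list. Of 28 heat shock proteins and chaperones 2 rose and 1 fell, among them Hsph1 (1.21) and Hspa2 (-0.98), with a median of 0.17. Of 27 measured genes of cholesterol synthesis and uptake, 6 rose and none fell, with a median of 0.23. Sqle, squalene epoxidase, had 385 in sham, 374 in vehicle, 796 with ECS and 706 with fluoxetine, and Hmgcs1, the synthase at the head of the pathway, rose from 2459 to 3863. Of 33 measured chromatin modifiers, 2 fell and none rose, Hdac11 by the larger size (-0.65). Per2, a clock gene, rose from 122 to 301, with 178 in sham, so the controls differed by 0.55 here.

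Fluoxetine and ECS were set side by side, each against its own control array, so that the ratios shared no array. The signal filter and the choice of probe set did use all 4 arrays. A gene dim in both controls could thus pass through its treated arrays, which favours joint increases. The fluoxetine pool was chosen for weak facilitation. For the ECS mice the methods report reduced facilitation too, but describe no such choice. With ECS over sham, 5.34% of genes were higher and 4.18% lower. Of the 462 genes higher with fluoxetine, 241 were also higher with ECS, 3 were lower and 218 were neither. These 462 include the 64 that passed the filter only with the fluoxetine array. Of the 407 lower with fluoxetine, 149 were lower with ECS, 5 were higher and 253 were neither. Among the 15 largest increases with fluoxetine, 14 were past 1.5-fold the same way with ECS, Pdgfc being the other, and among the 15 largest decreases 15 were.

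A size limit with each treatment gave 2 sets of genes, which were chosen after their values were seen. Genes past 1.5-fold with both treatments are in neither set, also where their sizes were far apart, as for Fos at 1.22 with fluoxetine and 5.12 with ECS. In the first set, 48 genes were at least 2-fold apart with fluoxetine, with signals below 50 taken as 50, and under 1.5-fold with ECS, 31 of them higher and 17 lower. Pdgfc led it at 2.59 with fluoxetine and 0.49 with ECS, and its other probe set gave 2.78 and 0.00. Zfp703, a transcriptional repressor, had 2.13 and 0.50, Klf10 2.00 and 0.55, and Car12, a carbonic anhydrase, 1.71 and 0.36. Spock3, a matrix proteoglycan, went from 824 to 2084 with fluoxetine and from 645 to 835 with ECS. Lower members were Gm13889 (-1.50 and -0.14), Zap70, a tyrosine kinase (-1.33 and -0.49), and Jun (-1.12 and -0.37). The higher members Il17ra, Thbs4, Vwf, Cd52 and Adssl1 passed the signal filter only with the fluoxetine array. They had little room to enter as lower, so the split of this set rests in part on the filter. In the second set, 40 genes were at least 2-fold apart with ECS and under 1.5-fold with fluoxetine, 21 higher and 19 lower. It was led by Dusp1 (3.09 with ECS), Junb (2.88), Btg2, an antiproliferative early gene (2.40), and Ier2 (2.24), and held the hormone-induced kinase gene Sgk1, at 0.15 with fluoxetine and 1.39 with ECS. Some members of both sets had control arrays far apart. In the first set, sham stood above vehicle by 0.96 for Tgfb1i1 and 0.79 for Ctsc, whose ratios of fluoxetine to sham were 0.14 and 0.31. In the second set, sham stood above vehicle by 1.04 for Egr4, 1.03 for Plcg2, 1.01 for Zfp777 and 1.00 for Slc8b1. For the leading Pdgfc, Dusp1 and Junb the ratio of sham to vehicle was -0.16, -0.19 and -0.25. With 1 array a side, no difference between treatments in either set was tested.

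**Figure D5:**
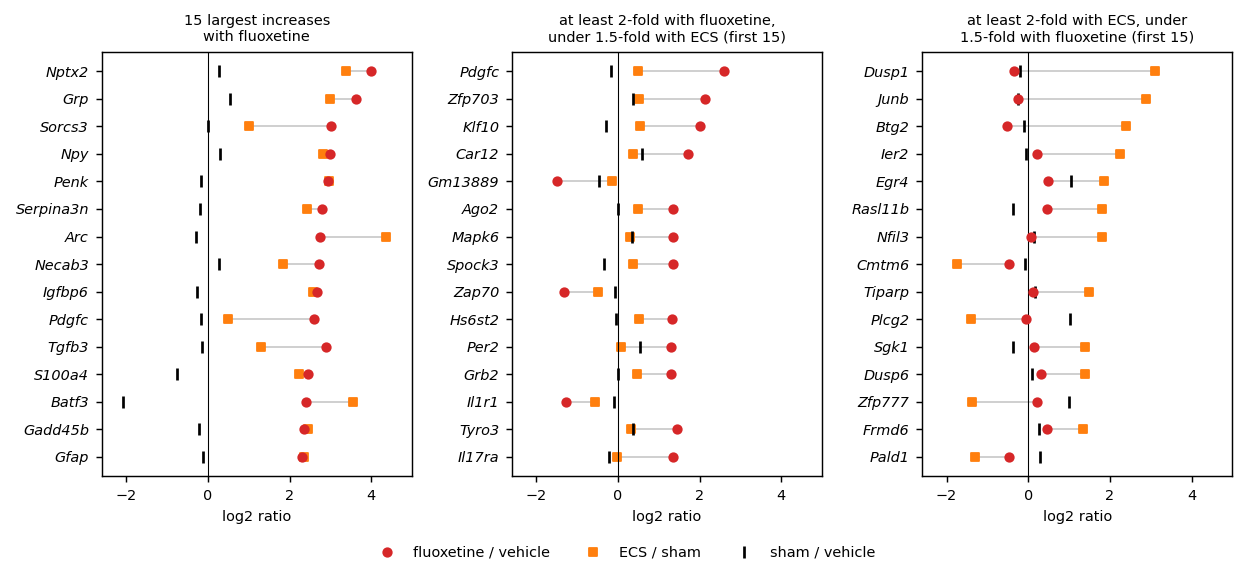
Log2 ratios (horizontal axis) of fluoxetine to vehicle (circles), ECS to sham (squares) and sham to vehicle (ticks) for 3 sets of 15 genes. Left, the 15 largest increases with fluoxetine. Middle, the first 15 of 48 genes at least 2-fold apart with fluoxetine and under 1.5-fold with ECS. Right, the first 15 of 40 genes at least 2-fold apart with ECS and under 1.5-fold with fluoxetine. The middle and right sets were picked by these same values, so their separation is a description.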

How the data were processed

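RNA of the dentate gyrus was pooled within each of 4 groups, vehicle, fluoxetine, sham and ECS, and hybridized to 1 array per group. The deposited values are linear signal intensities that the authors computed with MAS5, the Affymetrix Microarray Suite that summarises the single probes into 1 signal per probe set. Whether signals were scaled to a target is not given in the sources used here, and the median signals past the filter of 236 in sham, 219 with ECS, 335 in vehicle and 365 with fluoxetine differed. The number of arrays, 1 a group, limits the precision.

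Of 22690 probe sets, 64 controls were dropped, as were probe sets whose 4 signals averaged under 50, the filter of the study's methods. This left 13422, of which 12431 carry 1 gene symbol in the platform annotation, 426 several and 565 none. Each array was centred on its median log2 signal. A gene was represented by its brightest probe set, and change means at least 1.5-fold. A signal of 0 was to be taken as 0.1, which no kept probe set needed. No test was run. Coordinates are given for RefSeq promoters alone.

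Members and 56 gene lists were chosen with earlier results of these data known. The text names the 15 largest increases and 15 largest decreases, ranked with signals below 50 taken as 50, up to 4 members of each list with the largest change or its 2 brightest where none was past 1.5-fold, cell type markers, monoamine genes, and genes at least 2-fold apart with fluoxetine and 1.5-fold the other way with ECS. Further members were named after their values were seen. The steps were tested on simulated data. Python 3.11.15, numpy 2.4.6, pandas 2.3.3, scipy and matplotlib were used. Alternatives were other filters, scalings, low-signal rules, probe set rules, sizes, and sham as the control.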

Additional observations from a re-analysis of the deposited data

Results flagged for a closer look

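Among genes at least 2-fold apart with fluoxetine, 2 moved at least 1.5-fold the other way with ECS. Rab22a, a small GTPase of endosomes, had a log2 ratio of -1.04 for fluoxetine over vehicle and 0.65 for ECS over sham. Its signals were 372 in vehicle, 181 with fluoxetine, 240.3 in sham and 378 with ECS, so sham lay below vehicle by a log2 ratio of -0.63. The other probe sets of Rab22a gave -0.85 and 0.06 for fluoxetine and -0.27 and 0.24 for ECS. Glmn, which encodes glomulin, had -1.01 and 0.61, with 123 in vehicle, 61.4 with fluoxetine, 55.4 in sham and 84.8 with ECS. For Glmn the sham array stood -1.15 from vehicle. Neither difference between the treatments was tested.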

How the results depend on the processing

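The reported counts at 1.5-fold were 764 probe sets up and 663 down, or 53.5% on the higher side. With signals as deposited the counts were 1159 and 417 (73.5%), with no filter on signal 2943 and 3332 (46.9%), with a mean of at least 200 they were 332 and 282, with 1 probe set per gene 462 and 407, and with the probe sets of a gene averaged 451 and 390. At 1.2-fold they were 2500 and 2421 (50.8%), and at 2-fold 271 and 143 (65.5%). Requiring a mean of 50 over the other 3 arrays as well, which was chosen after the data were seen, gave a share of 50.7%. Fewer features were tested in some of these runs, 8276 probe sets at a mean of at least 200 and 7935 genes, against 13422 probe sets. The mean of at least 200 also left out the dimmer probe sets, which were past 1.5-fold more often. The part of either in the counts was not tested. Quantile normalization, a signal of 50 on any array, a floor of 50, a pseudocount of 16 and sham as control kept each count within 1.5 times.

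Of 169 named genes past 1.5-fold, the direction was kept by each one measured under each alternative, except that with sham in place of vehicle 166 kept it and 136 were still past 1.5-fold. The 3 that turned were Mcm2, at -0.94, Hbb-b2, at -0.57, and Glmn, at 0.15. Of the 15 list medians of at least 0.2 in size, 14 kept their sign under sham as control and 15 under each other alternative that measured them, the exception being the blood list, which holds Hbb-b2 alone. Dim genes are the least certain. No paired analysis was possible because each group has 1 array.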
